A study of Mus musculus with 6 samples.

Results

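The proteasome genes of the mouse were examined in the testes of 3 KOStra8 and 3 HETStra8 mice. They were taken as every protein-coding gene of GENCODE release M21 whose symbol is Psma, Psmb, Psmc, Psmd, Psme, Psmf or Psmg followed by a number, with an optional a or b at the end. The rule gave 49 genes out of 55536 in each table, and it used no measured value. By role they were the 14 subunits of the 2 kinds of core ring, the testis subunit Psma8, the 3 immunoproteasome subunits, the thymus subunit Psmb11, 17 subunits of the regulatory cap, 7 assembly chaperones, 5 activators and the inhibitor Psmf1. The cap subunits Adrm1 and Sem1, which carry other symbols, were counted in a separate list.

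In KOStra8 mice 1 Sel1L allele is floxed and the other is deleted, and Stra8-Cre, a Cre recombinase under a male germ cell promoter, is present. Under HETStra8 the study combines 2 genotypes: Sel1L flox/+ with Stra8-Cre, and Sel1L flox/Δ. For these libraries the series text names only the second, in littermates and with no mention of Stra8-Cre, and no genotype is given per mouse. If all HETStra8 mice are flox/Δ, each of the 6 mice carries a deleted Sel1L allele, and the groups differ in Stra8-Cre as well as in SEL1L. Sel1L encodes the adaptor of the ubiquitin ligase HRD1, which hands misfolded proteins of the endoplasmic reticulum to the proteasome, so the comparison asks whether proteasome transcripts differed when Sel1L was deleted in germ cells. All mice were 7 weeks old. RNA came from whole testis, and Stra8-Cre leaves the somatic cells, and per the study also spermatogonia, with SEL1L. The sample titles number separate mice, with 1 library each.

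The proteasome is the protease that degrades proteins tagged with ubiquitin. Its core, the 20S particle, is a barrel of stacked rings: the outer alpha rings form the gate, and the inner beta rings hold the proteolytic sites of Psmb5, Psmb6 and Psmb7. The 19S cap binds the barrel, with a base of ATPases that unfolds substrates and a lid that removes ubiquitin. In meiotic and later male germ cells Psma8 takes the place of Psma7 in the alpha ring, which gives the spermatoproteasome, and the activator PA200, the product of Psme4, binds the core and takes part in the removal of acetylated histones. In immune cells and under interferon, Psmb8, Psmb9 and Psmb10 replace Psmb5, Psmb6 and Psmb7.

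The library totals lay between 28875108 and 36526695 counts. Sel1l was at 17.2, 17.1 and 15.1 TPM in HETStra8 mice 1 to 3 and at 8.92, 7.79 and 7.35 TPM in KOStra8 mice 1 to 3, so the groups did not overlap. Its log2 fold change of KOStra8 against HETStra8 was -1.07 ± 0.104 (SE), with an adjusted p = 0.00061. TPM, computed here as counts per kilobase of exon scaled to a common sum, are used wherever genes are compared with each other. The summed level of 7 elongating spermatid markers was 52900 to 53500 TPM in HETStra8 and 49400 to 54900 TPM in KOStra8. Most of this sum was Prm1, Prm2, Tnp1 and Tnp2, with HETStra8 means of 9021 to 14260 TPM. By gene, 6 of the 7 were below 0, with a median log2 fold change of -0.068. Odf1, Oaz3 and Gapdhs were lower without overlap of the groups, at -0.11, -0.17 and -0.20. With the GC offsets described below, the median was 0.022 and 3 of 7 were below 0. Several marker lists moved with the group. The 7 leptotene and zygotene markers summed to 455 to 847 TPM in HETStra8 and 910 to 983 TPM in KOStra8. The list was mixed: log2 fold changes were 0.97, 0.49, 0.44 and 0.57 for Sycp1, Sycp3, Hormad1 and Meioc, which have a low GC content, 0.034 and 0.046 for Dmc1 and Meiob and -0.15 for Prdm9. Its median was 0.44, and 0.098 with the GC offsets described below, where 3 of 7 were below 0. The 8 pachytene and diplotene markers summed to 4300 to 4620 TPM in HETStra8 and 4220 to 4390 TPM in KOStra8, with 4 above and 4 below 0. Most of this sum was Ybx2, with means of 2817 TPM in HETStra8 and 2584 TPM in KOStra8. Ybx2 was lower, at -0.15 on the log2 scale, and Mybl1 was higher, at 0.45, each without overlap of the groups. The 7 Sertoli markers summed to 831 to 985 and 703 to 800 TPM, and the 6 macrophage markers to 60.1 to 68.7 and 45.9 to 57.8 TPM. The 6 Leydig markers summed to 707 to 1140 and 638 to 792 TPM, with overlap. All 6 were below 0, with a median log2 fold change of -0.32, and of -0.27 with the GC offsets, where all 6 stayed below 0. The epididymis marker Crisp1 had 220 counts in HETStra8 mouse 1 and 0 to 11 counts in the other 5 mice, and Adam7 had 44 counts in that mouse and 0 in the others. The third marker of that list, Lcn5, had 0 counts in that mouse and 4 in HETStra8 mouse 3. In bulk RNA, fewer cells of a type and less RNA per cell cannot be told apart.

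Genes of 1 complex differed widely in transcript level. In HETStra8 the 14 subunits of the core rings ranged over 30.7-fold, from Psma2 at 23.0 ± 2.76 TPM to Psma6 at 706 ± 29.9 TPM (SD, n = 3). The alpha ring alone spanned this range, with a median of 53.0 TPM. The beta ring was more even, over 4.53-fold, from Psmb3 at 30.8 ± 4.28 TPM to Psmb6 at 140 ± 12.2 TPM, with a median of 73.2 TPM. The levels divide counts by all annotated exon bases of a gene. With the length of the principal transcript the range was 28.8-fold in the alpha ring and 4.48-fold in the beta ring. The lowest beta gene was then Psmb5.

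In the cap, the ATPase Psmc3 had the highest mean of the 49 genes, 752 ± 34.1 TPM. In these units it did not differ from Psma6 beyond their spread. With the length of the principal transcript Psmc3 was at 880 TPM and Psma6 at 614 TPM. Psmc6, another ATPase of the same ring, was at 27.6 ± 4.38 TPM. The scaffold subunit Psmd2, which receives ubiquitin-like domains of shuttle factors, was at 416 ± 23.98 TPM, and its relative Psmd1 was at 32.5 ± 1.53 TPM. In the lid, Psmd8 was highest at 274 ± 10.9 TPM. Psmd14, the deubiquitinase of the lid, was lowest at 32.5 ± 1.55 TPM. The neighbours Psmd1 and Psmd14 did not differ beyond their spread in these units. With the length of the principal transcript they were at 55.7 and 43.65 TPM. Among the chaperones that assemble the core, Psmg2 was at 41.7 ± 4.21 TPM and Psmg3 at 1.48 ± 0.629 TPM. Those of the cap base ran from Psmd5 at 6.62 ± 0.908 TPM to Psmd10 at 26.0 ± 3.85 TPM. With the length of the principal transcript the highest of these was Psmd9.

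The activators had the widest range, 162-fold. Psme4 was highest at 278 ± 24.1 TPM and in these units did not differ from Psmd8 beyond their spread. With the length of the principal transcript Psme4 was at 264 TPM and Psmd8 at 399 TPM. Psme3, the nuclear PA28 subunit, was at 130 ± 5.82 TPM. Psme1 and Psme2, which together form the interferon-inducible PA28 ring, were at 14.1 ± 3.69 and 14.2 ± 2.94 TPM and did not differ beyond their spread. The inhibitor Psmf1 was at 183 ± 4.75 TPM. The immunoproteasome genes lay below every gene of the core rings: Psmb10 at 4.80 ± 0.750 TPM, Psmb8 at 0.569 ± 0.330 TPM and Psmb9 at 0.348 ± 0.228 TPM. Psmb11 had 2 to 7 counts in every library and was the 1 gene of the 49 that did not pass the filter on low counts.

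**Figure D1:**
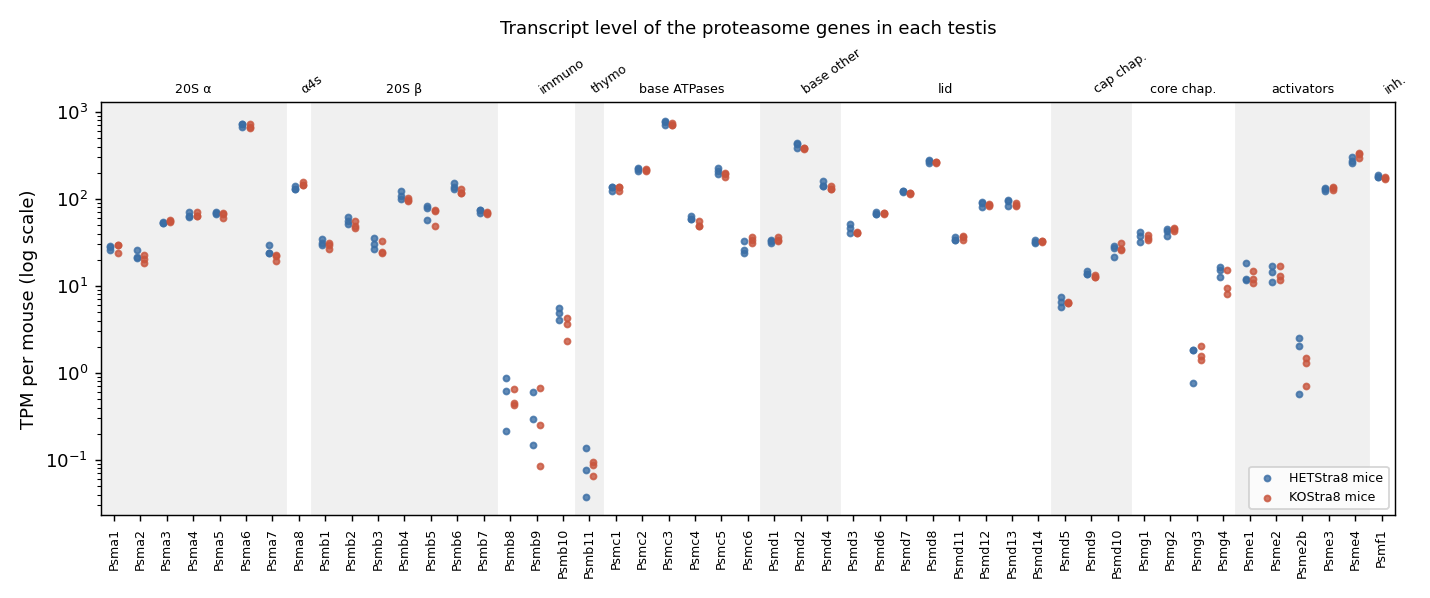
Level of each of the 49 proteasome genes in TPM (log scale), with 1 point per mouse, HETStra8 in blue and KOStra8 in red, grouped by role. Psmc3 and Psma6 stand at the top, the 4 genes Psmb8, Psmb9, Psmb10 and Psmb11 lie at the bottom with Psmg3 and Psme2b, and the points of the groups lie close together for most genes.

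In the comparison of the groups, 0 of the 48 tested genes passed both cutoffs (adjusted p under 0.01, fold over 2) in edgeR's quasi-likelihood test, beside 0.00466% of all 21465 tested genes that were called higher and 0.00466% called lower. The smallest adjusted p was 0.3, for Psmc4. At an unadjusted p under 0.05, 2 genes were higher and 5 were lower in KOStra8, beside 7.13% of all tested genes that were higher and 5.12% that were lower. With the same cutoff DESeq2 gave 1 higher and 3 lower, and the share of all tested genes was not computed for DESeq2. The groups did not overlap in CPM (counts scaled to the library size, without division by length) for 0 genes in the higher direction, beside 9.33% of all genes, and for 7 in the lower direction, beside 8.43%. Those 7 were Psma7, Psmc4, Psmc5, Psmd2, Psmd7, Psmd9 and Psmf1.

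The fold changes were small and most were below 0. Of the 48 genes, 39 had a log2 fold change below 0 and 9 above 0, where 51.5% of all tested genes were below 0. The median was -0.092 for the proteasome genes and -0.0094 for all tested genes, and single values ran from -0.59 for Psme2b to 0.26 for Psmc6. The summed level of the 49 genes was 5240, 5170 and 5010 TPM in HETStra8 mice 1 to 3 and 4940, 5000 and 4970 TPM in KOStra8 mice 1 to 3. In this sum, in which the most abundant genes weigh most, every KOStra8 mouse was below every HETStra8 mouse by a small margin. The median over the genes of the log2 difference from the HETStra8 mean, in which each gene weighs the same, was 0.084, -0.0061 and -0.076 for the HETStra8 mice. It was -0.12, -0.023 and -0.12 for the KOStra8 mice, and there the groups overlapped, with KOStra8 mouse 2 above HETStra8 mouse 3. Without HETStra8 mouse 1, which held Crisp1 and Adam7, the median was -0.059, and 0 genes were higher and 1 was lower at an unadjusted p under 0.05. Without KOStra8 mouse 1 these counts were 0 and 1, and without HETStra8 mouse 2 they were 0 and 4. Without KOStra8 mouse 3 they were 0 and 0, and without HETStra8 mouse 3 the lower count was 8. The share of all tested genes was not computed for the fits without a mouse, so these counts cannot be read against it.

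The fold change followed the GC content of the transcripts. Across all tested genes Spearman's rho between the log2 fold change and GC content was -0.46, and across the 48 proteasome genes it was -0.623; genes of 1 library share its GC trend and are not independent replicates. Of 26 proteasome genes under 50% GC, 8 had a fold change above 0, and of the 22 at 50% GC or more, 1 did. With offsets that remove the trend with GC and length in each library, rho across the 48 genes was 0.137 and the median fold change was -0.075, with 36 of 48 genes below 0 beside 50.2% of all tested genes. At an unadjusted p under 0.05, 0 genes were then higher, beside 4.13% of all tested genes, and 6 were lower, beside 3.45%. The 6 were Psma2, Psma3, Psmb7, Psmc2, Psmc4 and Psmd11, so that Psmc4 was the 1 gene lower at this cutoff in both fits. These genes depended on the transcript from which GC content and length were taken. With the principal transcript, 0 genes were higher, beside 4.1% of all tested genes, and 5 were lower, beside 3.29%: Psma2, Psma3, Psma7, Psmb1 and Psmd12. Psmc2 was then at -0.043, Psmd11 at 0.0084 and Psmc4 at -0.17 with an unadjusted p = 0.0503.

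**Figure D2:**
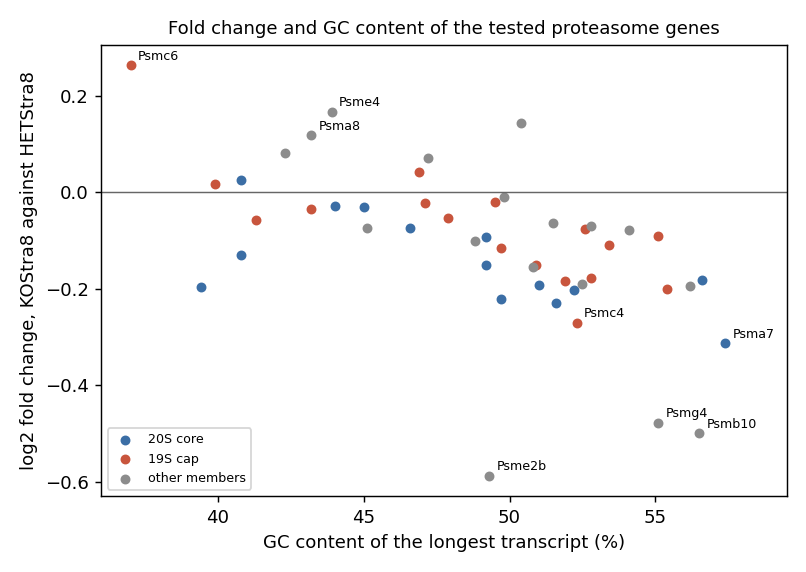
Log2 fold change of KOStra8 against HETStra8 for the 48 tested proteasome genes (y axis) against the GC content of the longest transcript in percent (x axis), coloured by complex. Of the 26 genes under 50% GC, 8 lie above 0, among them Psmc6, and of the 22 at 50% or more, 1 does. Psma7, Psmg4 and Psmb10 lie below 0 at high GC content. Spearman's rho is -0.623.

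The alpha ring had 1 of 7 genes above 0 and a median log2 fold change of -0.074, or -0.12 with the GC offsets. Psma6, the most abundant alpha transcript, was at 672, 721 and 725 TPM in HETStra8 and at 660, 675 and 718 TPM in KOStra8, and the groups overlapped. Psma7 occupies the position that Psma8 takes in germ cells. It was at 29.6, 24.1 and 24.2 TPM in HETStra8 mice 1 to 3 and at 22.7, 22.1 and 19.2 TPM in KOStra8 mice 1 to 3. Every KOStra8 mouse was below every HETStra8 mouse, and HETStra8 mouse 1 was the highest. The log2 fold change of Psma7 was -0.31 ± 0.121 (SE), with an adjusted p = 0.332. It was -0.16 with the GC offsets, -0.25 with offsets from the principal transcript and -0.20 without HETStra8 mouse 1.

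Psma8, on chromosome 18, was at 130, 131 and 139 TPM in HETStra8 mice 1 to 3 and at 144, 145 and 156 TPM in KOStra8 mice 1 to 3. The groups did not overlap in TPM and overlapped in CPM, where HETStra8 mouse 3 was at 114.2 and KOStra8 mouse 1 at 113.7. The log2 fold change was 0.12 ± 0.0753 (SE), with an adjusted p = 0.541, and it was 0.0033 with the GC offsets and -0.019 with offsets from the principal transcript. No 50-base stretch of the principal transcript of Psma7 or Psma8 occurs in another annotated gene; their other exons were not searched.

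Per length, Psma8 was the major transcript of the pair in every mouse. It was 4.4, 5.45 and 5.76 times Psma7 in HETStra8 mice 1 to 3 and 6.32, 6.54 and 8.11 times Psma7 in KOStra8 mice 1 to 3. With the length of the principal transcript the ratios were 1.93, 2.39 and 2.53 in HETStra8 and 2.77, 2.87 and 3.56 in KOStra8. The share of Psma8 in the sum of Psma7 and Psma8 was 83.7 ± 1.99% in HETStra8 and 87.4 ± 1.45% in KOStra8 (SD, n = 3). The difference of 3.63 percentage points had a two-sided exact permutation p = 0.1, the smallest that 3 mice against 3 allow, and 0.6 after adjustment over the 6 shares compared. Each KOStra8 mouse lay above each HETStra8 mouse. The difference between the log2 fold changes of Psma8 and Psma7 was 0.43, and 0.17 with the GC offsets. Psma8 has a GC content of 43.2% and Psma7 of 57.4%. The summed leptotene and zygotene markers given above were higher in the same mice. The sum of the pachytene and diplotene markers, most of it from Ybx2, was not. The part of either in the share was not tested.

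The beta ring had 0 of 7 genes above 0 in either fit, with a median log2 fold change of -0.19 and of -0.14 with the GC offsets. Psmb6, which cleaves after acidic residues, was at 153, 138 and 129 TPM in HETStra8 and at 117, 130 and 118 TPM in KOStra8, and KOStra8 mouse 2 reached the range of the HETStra8 mice. Its log2 fold change was -0.23 ± 0.0928 (SE), with an adjusted p = 0.349. Psmb7, with trypsin-like activity, was at 74.9, 75.2 and 69.8 TPM in HETStra8 and at 68.3, 70.3 and 66.6 TPM in KOStra8, with overlap and a log2 fold change of -0.13 (adjusted p = 0.526). It is among the genes that were lower with the GC offsets, at -0.32, but at -0.12 with offsets from the principal transcript, whose GC content differs from that of the longest one.

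Psmb5, with chymotrypsin-like activity, was at 79.1, 83.8 and 56.7 TPM in HETStra8 and at 73.34, 74.96 and 49.45 TPM in KOStra8. Mouse 3 was the lowest in both groups, and the log2 fold change was -0.18 ± 0.186 (SE), with an adjusted p = 0.729. The value moved to -0.011 when KOStra8 mouse 3 was left out and to -0.33 when HETStra8 mouse 3 was. Leaving out HETStra8 mouse 1 or 2 or KOStra8 mouse 2 gave -0.11, -0.083 and -0.29. A 50-base match to other genes exists for 57.1% of the principal Psmb5 transcript, most of it in the processed pseudogene Gm3375 on chromosome 7. Counts of Gm3375 were 194, 3 and 191 in HETStra8 and 7, 4 and 162 in KOStra8, beside 749, 828 and 558 and 731, 643 and 524 counts of Psmb5. The pseudogene was thus near 0 in 3 mice and above 150 counts in 3 mice, across both groups, and the level of Psmb5 is uncertain by the reads that the pair can share. Together the 14 core ring genes summed to 1460 to 1500 TPM in HETStra8 and to 1380 to 1420 TPM in KOStra8, without overlap, and 13 of the 14 were below 0. The sum of each ring alone did overlap. The alpha ring was at 941 to 989 TPM in HETStra8 and 917 to 970 TPM in KOStra8, and the beta ring at 468 to 562 and 432 to 486 TPM. A large part of the pooled sum was Psma6, with a HETStra8 mean of 706 TPM, whose groups overlapped.

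**Figure D3:**
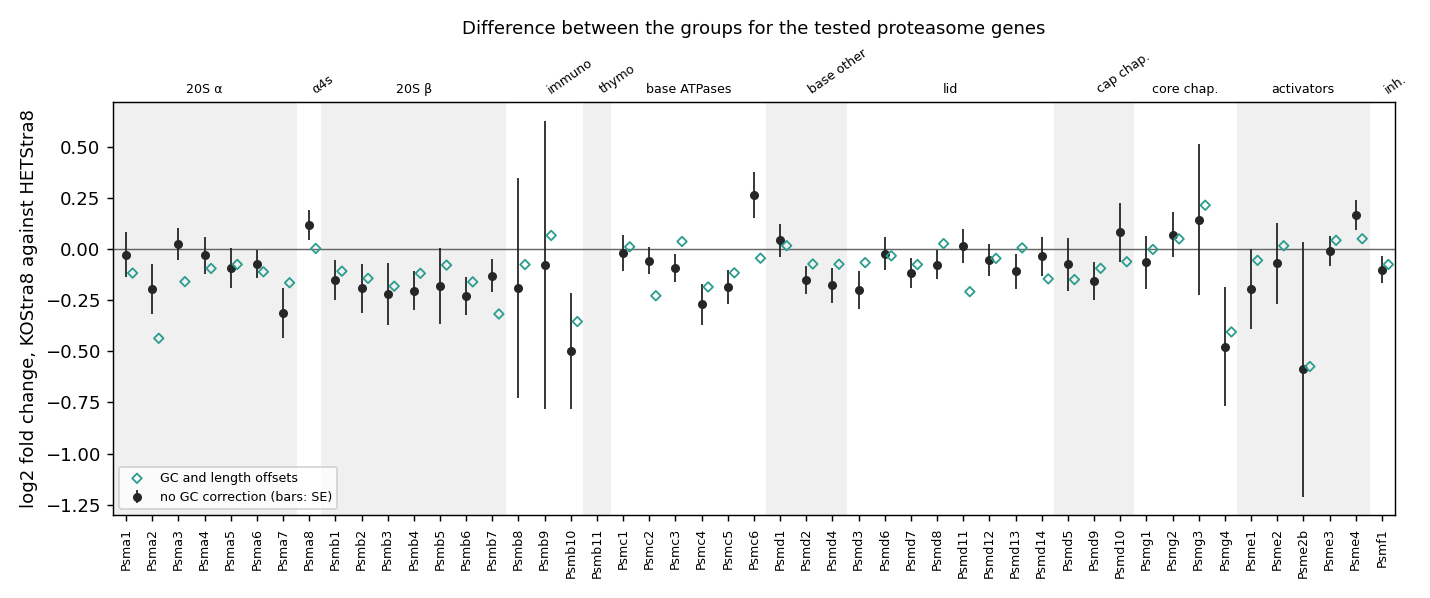
Log2 fold change of KOStra8 against HETStra8 for the 48 tested genes, by role, as black points with bars of 1 SE, and with offsets for GC content and length as open diamonds. Most points lie just below 0. Psmc6, Psme4 and Psma8 are above 0 without the offsets. With them, Psme4 and Psma8 move towards 0 and Psmc6 crosses it to -0.045. The bars are widest for Psmb8, Psmb9 and Psme2b, which have few counts.

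The immunoproteasome genes were near the limit of what these libraries count. Counts of Psmb8 were 31, 23 and 8 in HETStra8 and 17, 21 and 17 in KOStra8. Psmb9 had 23, 12 and 6 counts in HETStra8 and 27, 3 and 11 counts in KOStra8. Both spread more within a group than between the groups, with log2 fold changes of -0.19 ± 0.536 and -0.079 ± 0.705 (SE). Without HETStra8 mouse 1, they were 0.26 and 0.56. Psmb10 had 99, 91 and 75 counts in HETStra8 and 70, 38 and 87 counts in KOStra8; its log2 fold change was -0.50 ± 0.283 (SE), with an adjusted p = 0.491, and -0.35 with the GC offsets. Without KOStra8 mouse 2, which had 38 counts, it was -0.29, and leaving out 1 mouse gave -0.70 to -0.29. Psmb9 overlaps the exons of Tap1 on the opposite strand over 212 bases. The strand setting of the counting is not given in the sources used here, so reads from the 2 genes may not be told apart. The same holds, among others, for Psmb7 with Nek6 over 405 bases and for Psmd13 with Sirt3 over 342 bases.

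The 3 immunoproteasome genes made up 1.94 ± 0.269% of the length-scaled counts of the 6 catalytic subunits in HETStra8 and 1.68 ± 0.515% in KOStra8 (SD, n = 3; exact permutation p = 0.6, adjusted 0.8). Psmb10 was 6.12 ± 0.709% of its pair with Psmb7 in HETStra8 and 4.82 ± 1.47% in KOStra8 (n = 3; exact permutation p = 0.3, adjusted 0.6). Psmb8 was 0.734% and 0.777% of its pair with Psmb5, and Psmb9 was 0.241% and 0.282% of its pair with Psmb6 (n = 3; exact permutation p = 0.8 for each, adjusted 0.8). The lymphocyte markers summed to 4.89 to 10.7 TPM in HETStra8 and 5.49 to 10.7 TPM in KOStra8, and the macrophage markers were lower in KOStra8, as given above. The part of these cells in the immunoproteasome counts was not tested.

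**Figure D4:**
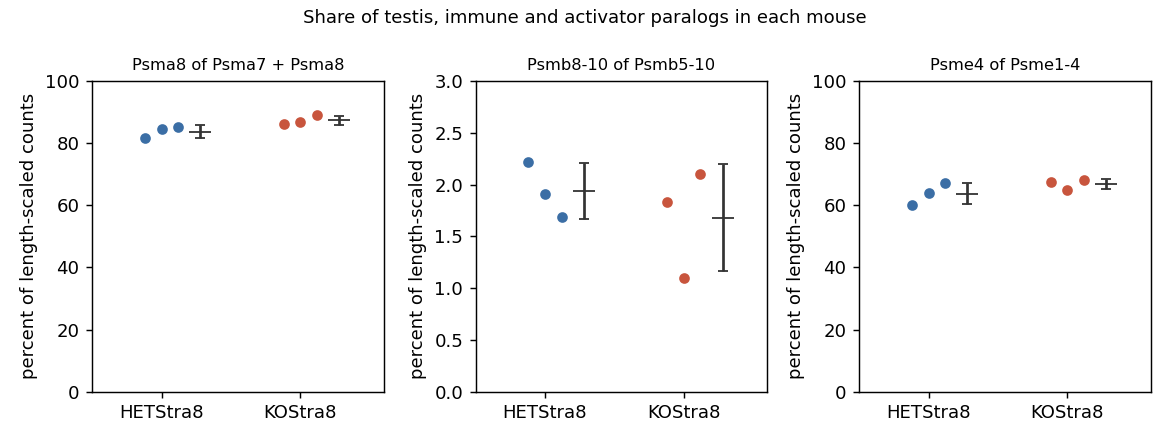
Share in percent, per mouse, of Psma8 in Psma7 and Psma8, of Psmb8 to Psmb10 in the 6 catalytic genes, and of Psme4 in the 4 activators Psme1 to Psme4, from counts per kilobase of exon. Bars are mean ± SD of 3 mice, and the y axis of the middle panel ends at 3%; the KOStra8 mice lie above the HETStra8 mice for Psma8 at 86.3 to 89.0% against 81.5 to 85.2%, and the groups overlap in the other panels.

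In the cap, 3 of 17 genes were above 0, with a median log2 fold change of -0.076, and -0.066 with the GC offsets. The base ATPases held values at both ends. Psmc6 was at 24.1, 26.2 and 32.5 TPM in HETStra8 and at 34.0, 31.3 and 36.1 TPM in KOStra8. HETStra8 mouse 3 lay within the range of the KOStra8 mice. The log2 fold change was 0.26 ± 0.113 (SE), with an adjusted p = 0.373, and -0.045 with the GC offsets, and Psmc6 has the lowest GC content of the 48 genes at 37.0%. Psmc4 was at 63.6, 58.8 and 58.6 TPM in HETStra8 and at 49.2, 55.6 and 48.3 TPM in KOStra8, without overlap. Its log2 fold change was -0.27 ± 0.0987 (SE), with an adjusted p = 0.3, and -0.19 with the GC offsets. Psmc5 was at 226, 212 and 195 TPM in HETStra8 and at 199, 178 and 193 TPM in KOStra8, with a log2 fold change of -0.18 ± 0.0836 (SE) and an adjusted p = 0.397. In TPM, KOStra8 mouse 1 lay above HETStra8 mouse 3, though the groups did not overlap in CPM. The other 3 ATPases, Psmc1, Psmc2 and Psmc3, had log2 fold changes of -0.019, -0.057 and -0.092.

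Psmc4 (chr7:28041707-28050101, GRCm38) and Psmd8 (chr7:29174188-29180701) lie near Sirt2 and Ryr1, which both passed an adjusted p of 0.01 between these groups. Sirt2 starts 717 kb after the end of Psmc4 and was higher in KOStra8, by 0.66 on the log2 scale (adjusted p = 0.000808), and Ryr1 ends 49 kb before Psmd8 and was higher by 1.89 (adjusted p = 0.00061). Psmd8 was at 284, 275 and 262 TPM in HETStra8 and at 267, 268 and 261 TPM in KOStra8, with a log2 fold change of -0.075 ± 0.0689 (SE) and an adjusted p = 0.689.

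Of the other base subunits, Psmd2 was at 434, 424 and 389 TPM in HETStra8 and at 382, 385 and 379 TPM in KOStra8. The groups did not overlap, and the log2 fold change was -0.15 ± 0.0683 (SE), with an adjusted p = 0.393 and -0.073 with the GC offsets. A 50-base match to other genes exists for 26.4% of its transcript, in pseudogenes with few counts. Psmd4, a ubiquitin receptor, had a log2 fold change of -0.18, and Psmd1 one of 0.043. Among the 8 lid genes, 7 were below 0 and the median was -0.065. The values ran from -0.20 for Psmd3 (adjusted p = 0.408) to 0.016 for Psmd11. Psmd7, the partner of the deubiquitinase Psmd14, was at 122, 124 and 121 TPM in HETStra8 and at 116, 117 and 113 TPM in KOStra8, without overlap and at -0.12 on the log2 scale, with an SE of 0.075 and an adjusted p = 0.545. Psmd14 itself was at -0.036. Psmd6, Psmd12 and Psmd13 were at -0.023, -0.054 and -0.11. The 17 cap genes summed to 2640 to 2840 TPM in HETStra8 and 2600 to 2660 TPM in KOStra8, with overlap.

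The assembly chaperones lay on both sides of 0. Of those of the cap base, Psmd9 was at -0.16 and Psmd5 at -0.073, and Psmd10, also known as gankyrin, was at 0.082 ± 0.146 (SE; adjusted p = 0.856). Psmd10 was at 21.6, 29.1 and 27.2 TPM in HETStra8 and at 25.8, 31.5 and 26.8 TPM in KOStra8, with overlap. Of those of the core, Psmg2 was at 42.9, 45.2 and 37.1 TPM in HETStra8 and at 44.8, 46.7 and 42.7 TPM in KOStra8, and the log2 difference was 0.071 with an SE of 0.11 (adjusted p = 0.83). Its partner Psmg1 was at -0.063. Psmg3 and Psmg4, which work as a pair, had 24 to 70 and 53 to 97 counts, with log2 fold changes of 0.14 ± 0.370 and -0.48 ± 0.291 (SE).

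Among the activators Psme4 was above 0 and the other 4 were below 0. Psme4 was at 257, 273 and 305 TPM in HETStra8 mice 1 to 3 and at 334, 292 and 332 TPM in KOStra8 mice 1 to 3. KOStra8 mouse 2 lay below HETStra8 mouse 3. The log2 fold change was 0.17 ± 0.0733 (SE), with an adjusted p = 0.382, and 0.051 with the GC offsets. Psme4 has a GC content of 43.9%. Its share of the 4 activators was 63.7 ± 3.44% in HETStra8 and 66.8 ± 1.71% in KOStra8 (SD, n = 3; exact permutation p = 0.2, adjusted 0.6). Psme3 was at 135, 131 and 123 TPM in HETStra8 and at 136, 126 and 132 TPM in KOStra8, with a log2 fold change of -0.0095 ± 0.0743 (SE).

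Psme1 was at 18.3, 12.1 and 11.7 TPM in HETStra8 and at 12.1, 14.8 and 10.8 TPM in KOStra8. Psme2 was at 17.0, 11.2 and 14.6 TPM in HETStra8 and at 12.9, 17.0 and 11.7 TPM in KOStra8. For both, HETStra8 mouse 1, the mouse with Crisp1 and Adam7, was the highest of its group, and the groups overlapped. The log2 fold changes were -0.20 ± 0.197 and -0.069 ± 0.198 (SE), and 0.054 and 0.090 without that mouse. Psme2b, an intronless relative of Psme2, had 5 to 23 counts and shares a 50-base match with other genes, chiefly Psme2, over 69.3% of its transcript, so its value is uncertain. The inhibitor Psmf1, also called PI31, was at 189, 181 and 180 TPM in HETStra8 and at 175, 171 and 177 TPM in KOStra8. The groups did not overlap, and the log2 fold change was -0.10 ± 0.065 (SE), with an adjusted p = 0.546.

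Sequences upstream of the genes are shown for Psmc6, Psme4 and Psmb6. They are the genes with an unadjusted p under 0.05 whose window holds the antioxidant response element TGACNNNGC, the site through which Nfe2l1, the factor that raises proteasome genes when proteasomes are inhibited, is known to act. The windows are from RefSeq (GRCm38.p6), cover 250 bases before to 50 bases after an annotated start site and lie on the plus strand. Capitals mark the element, read on either strand.
Psmc6, chr14:45329574-45329873: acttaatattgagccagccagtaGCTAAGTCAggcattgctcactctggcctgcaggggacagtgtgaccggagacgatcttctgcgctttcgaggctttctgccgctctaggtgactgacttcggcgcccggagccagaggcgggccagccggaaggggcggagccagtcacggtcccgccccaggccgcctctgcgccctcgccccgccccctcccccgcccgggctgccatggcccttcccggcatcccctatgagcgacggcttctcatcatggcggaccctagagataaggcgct
Psme4, chr11:30771525-30771824: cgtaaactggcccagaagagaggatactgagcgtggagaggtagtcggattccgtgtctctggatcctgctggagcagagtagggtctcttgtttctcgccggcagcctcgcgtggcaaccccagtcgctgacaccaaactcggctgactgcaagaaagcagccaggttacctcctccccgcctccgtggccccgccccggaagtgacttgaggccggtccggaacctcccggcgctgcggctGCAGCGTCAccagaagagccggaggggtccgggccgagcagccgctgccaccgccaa
Psmb6, chr11:70525107-70525406: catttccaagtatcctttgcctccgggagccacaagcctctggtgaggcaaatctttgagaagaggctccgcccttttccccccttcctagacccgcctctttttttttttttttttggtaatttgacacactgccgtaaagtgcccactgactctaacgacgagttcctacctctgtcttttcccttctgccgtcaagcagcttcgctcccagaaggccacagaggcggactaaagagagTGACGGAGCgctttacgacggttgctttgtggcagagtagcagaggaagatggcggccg
The element began 227 bases before the start site in Psmc6, 7 bases before it in Psme4 and 9 bases before it in Psmb6. In these 3 windows it overlapped none of the other motifs searched. The 3 shown are those under the p cutoff; of the 6 proteasome genes with the element in their window, 2 (Psmc6 and Psme4) had a log2 fold change above 0 and 4 (Psmb5, Psmb6, Psmd9 and Psmd12) below 0.

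RefSeq windows were at hand for 41 of the 49 genes, 44 windows in all, and 9 motifs were searched on both strands. The antioxidant response element was in 6 of the 44 windows, 13.6%, and in 12.4% of all 32851 windows; besides the 3 genes shown these were Psmb5, Psmd9 and Psmd12. The ETS motif CCGGAAG was in 15 of the 44 windows, 34.1%, and in 8.9% of all windows, and was named here after its count was seen. GGGCGGG (SP factors) was in 38.6% of the proteasome windows and 25.6% of all, CCAAT in 31.8% and 37.4%, and AACTGNC (MYB) in 13.6% and 12.8%. The interferon-related motifs GAAANNGAA and TTCNNNGAA were in 15.9% and 6.8% of the proteasome windows and in 8.6% and 8.3% of all. TTCNNNGAA was in Psmb8, Psmd2 and Psmg1. GAAANNGAA was in none of the immunoproteasome genes Psmb8, Psmb9 and Psmb10. It was in Psmb3, Psmb4, Psmc2, Psmd4, Psmd9, Psme1 and Psmg4. GCATGCGC was in 6.8% and 2.7%, and TGACGTCA in 0 of 44 and 1.8% of all. A match is a description of letters and not of a bound site.

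In the main fit, log2 fold changes of the other genes of the pathway ran from -0.49 to 0.45. Of 28 proteasome-associated and regulatory genes, 2 were higher and 3 were lower at an unadjusted p under 0.05, beside 7.13% and 5.12% of all tested genes, with a median log2 fold change of -0.027. With the GC offsets 0 were higher and 3 were lower, beside 4.13% and 3.45%, and these 3 were Ddi1, Zfand5 and Ipo9. With offsets from the principal transcript 0 were higher and 7 were lower, beside 4.1% and 3.29%. In that fit 21 of the 28 were below 0. Ddi1 was at -0.079 in the main fit, at -0.27 with the GC offsets and at -0.34 with offsets from the principal transcript. The 2 higher ones were the ligase Ube3a, at 0.45 ± 0.101 (SE; adjusted p = 0.126), and Uchl5, the deubiquitinase that binds the cap, at 0.30 ± 0.0992 (SE; adjusted p = 0.264). With the GC offsets they were at 0.077 and 0.067. The 3 lower ones were Nfe2l1 at -0.23 (adjusted p = 0.312), the ubiquitin receptor Adrm1 at -0.22 (adjusted p = 0.328) and the nuclear import receptor Ipo9 at -0.19 (adjusted p = 0.4). With the GC offsets these were at -0.11, -0.086 and -0.16. Nfe2l1 was at 54.2, 53.6 and 46.5 TPM in HETStra8 and at 47.0, 44.8 and 42.7 TPM in KOStra8. Pomp, the chaperone that matures the core, was at -0.086 ± 0.126 (SE; adjusted p = 0.818).

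Of 6 ubiquitin genes and activating enzymes, 1 was higher and 1 was lower at that cutoff, beside 7.13% and 5.12% of all tested genes. They were the 2 activating enzymes: Uba6 at 0.41 (adjusted p = 0.181) and Uba1 at -0.21 (adjusted p = 0.387), which were at 0.10 and -0.11 with the GC offsets. Of 9 genes of MHC class I antigen presentation, which uses peptides that the immunoproteasome makes, 0 were higher and 2 were lower, beside the same 7.13% and 5.12%, with a median log2 fold change of -0.17. With the GC offsets the median was -0.055, and 0 genes were higher and 1 was lower, beside 4.13% and 3.45% of all tested genes. H2-D1 was at 29.93, 27.43 and 34.96 TPM in HETStra8 and at 24.2, 23.9 and 19.2 TPM in KOStra8, without overlap, with a log2 fold change of -0.49 ± 0.127 (SE) and an adjusted p = 0.175, and at -0.36 with the GC offsets. Tapbp was at -0.21 (adjusted p = 0.397), and at -0.064 with them. None of the genes of these 3 lists passed an adjusted p of 0.05.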

How the data were processed

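Total RNA of 6 whole testes was made into poly(A)-selected, directional, paired-end libraries. The authors deposited, for each mouse, raw counts of reads for 55536 Ensembl genes. The submitters' processing notes list STAR 2.7.1a and featureCounts 1.6.0 among the tools; the strand setting is not given in the sources used here. Symbols, positions, lengths and GC content came from GENCODE M21 (GRCm38).

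Counts were fitted in R 4.3.3 with edgeR 4.0.16 (filterByExpr, TMM factors of 0.99 to 1.01, robust quasi-likelihood F test, two-sided, Benjamini-Hochberg over 21465 genes), with genotype as the only term; the common coefficient of biological variation was 0.16. TPM divide counts by the union of exons. CPM are TMM-normalized. GC and length offsets came from a loess per library (span 0.3). Shared sequence was measured with 50-base words of the principal transcript. Shares were compared by exact permutation. The fits between the groups were tried on simulated counts, with known changes larger than those of the proteasome genes and no GC trend. The shares, the searches for shared sequence and motifs and the removal of a GC trend were not tested in this way.

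Mouse numbers were not used to pair the samples in the main fit. Correlations of same-numbered mice, in deviations from the group mean, were -0.0601, -0.0525 and 0.108. Those of other pairs ran from -0.116 to 0.155, so these values cannot settle whether the numbers mark pairs. A fit with the mouse number as a block was run as an alternative. The members and lists were chosen with earlier results of these data known. Values per mouse are given for Psma7, Psma8, Psmb5 to Psmb10, Psme1 to Psme4, Sel1l and the 5 genes with the smallest p in each direction. Genes shown beyond these, such as Psma6, Psmd7, Psmd8, Psmf1 and Gm3375, were chosen after their values were seen. Alternatives were DESeq2 1.42.0 or its size factors, limma-voom (limma 3.58.1), library totals, no filter, a minimum of 10 counts in each library, the block, GC and length offsets, an adjusted p of 0.05 and leaving out each mouse. Offsets and shares with the principal transcript's length were added after seeing the data. The symbol Paaf1 was not matched and not analysed here.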

Additional observations from a re-analysis of the deposited data

How the results depend on the processing

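No proteasome gene was called under any of the alternatives run, an adjusted p of 0.05 with no fold included. In the main fit only 0.00466% of all 21465 tested genes were called higher and 0.00466% lower. The share called was not computed for the alternatives, so 0 calls among 48 genes is not a result about these genes. The median log2 fold change of the 48 genes stayed below 0 in all alternatives, from -0.16 to -0.059. The number of genes at an unadjusted p under 0.05 did depend on the setting. At that unadjusted cutoff the share of all tested genes was computed only for the main fit and for the offset fits without the block. The 2 higher genes became 0 with GC and length offsets, with these offsets and the replicate block together and with offsets from the principal transcript, and 1 with DESeq2; leaving out 1 mouse gave 0 to 2. The 5 lower genes became 3 with library totals, 3 with the replicate block and 3 with DESeq2. They became 4 with limma-voom, 4 with the offsets and the block together, 6 with GC and length offsets and 7 with no filter on low counts. Leaving out 1 mouse gave 0 to 8. The share of Psma8 in HETStra8 was 80.7% without division by length, 76.8% with the longest transcript and 69.3% with the principal transcript, and the immunoproteasome share was 1.32% with the principal transcript. The difference in the immunoproteasome share ran from -0.475 to 0.023 percentage points when 1 mouse was left out and was above 0 without KOStra8 mouse 2; that of the Psma8 share ran from 2.50 to 4.38 points.

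Single log2 fold changes near 0 changed sign. With GC and length offsets they were 0.067 for Psmb9, 0.017 for Psme2, 0.043 for Psme3, -0.045 for Psmc6 and -0.062 for Psmd10. With the offsets and the replicate block they were 0.047 for Psmb8, 0.019 for Psme2, 0.043 for Psme3, -0.045 for Psmc6 and -0.060 for Psmd10. With offsets from the principal transcript they were -0.019 for Psma8, 0.074 for Psmb9, 0.0095 for Psme2, 0.029 for Psme3, -0.078 for Psmc6 and -0.062 for Psmd10. With library totals Psme3 was at 0.0029. Leaving out 1 mouse gave -0.57 to 0.26 for Psmb8, -1.0001 to 0.56 for Psmb9, -0.34 to 0.054 for Psme1, -0.25 to 0.090 for Psme2, -0.037 to 0.030 for Psme3, -9e-04 to 0.12 for Psmg2 and -0.024 to 0.16 for Psmd10. The causes were not tested beyond what each setting changes. Psmb8 and Psmb9 had 3 to 31 counts per library, which leaves SEs of 0.536 and 0.705 on the log2 scale.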
